A study of Mus musculus with 144 samples.

Results

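The CYP1 family of cytochrome P450 genes, Cyp1a1, Cyp1a2 and Cyp1b1, was followed through the whole time course of an RNA-Seq study of mouse primary hepatocytes. The members were chosen by gene symbol, and 3 of the 55359 genes counted carried these symbols. Hepatocytes came from the livers of 28-day-old male mice labelled wild-type (strain C57BL/6NCrl) or DRE-null (strain Pkm-delta-DRE), the latter being a line in which genome editing removed a dioxin response element (DRE) from an intron of Pkm, backcrossed to C57BL/6N. Plated cells of both labels, in a medium that held dexamethasone, ascorbic acid and insulin-transferrin-selenium, received the dioxin TCDD at 10 nM or its DMSO vehicle, and were harvested at 2, 4, 8 and 12 h and then once a day from 24 to 120 h, 9 harvests in all. There were 4 libraries for each of the 36 combinations of label, treatment and hour. The labels do not say whether the 4 libraries of a group came from separate animals or cultures, so p-values measure the spread between these libraries, which may be technical. Expression is given as CPM, the count of a gene scaled to a common library size after TMM normalization, which accounts for depth but not for gene length.

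CYP1 enzymes oxidize aromatic hydrocarbons and other planar compounds, and their genes are the textbook targets of the aryl hydrocarbon receptor (AHR). A ligand such as TCDD frees AHR from its HSP90 complex in the cytosol, after which AHR pairs with ARNT in the nucleus and binds DREs, whose core is GCGTG. Cyp1a2 is a constitutive gene of the adult liver, Cyp1a1 is nearly silent there until AHR is activated, and Cyp1b1 is known mainly from tissues other than the hepatocyte.

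Cyp1a1 (ENSMUSG00000032315, chr9:57687928-57703824, plus strand) and Cyp1a2 (ENSMUSG00000032310, chr9:57676937-57683703, minus strand) lie head to head on chromosome 9, with 4224 bases between the annotated gene bodies. The RefSeq start of Cyp1a1 used below lies inside its annotated gene body, so 4224 bases is not the distance between the starts. Cyp1b1 (ENSMUSG00000024087, chr17:79701537-79715061, minus strand) lies on chromosome 17. These coordinates are those of a GENCODE annotation of GRCm38, whereas the authors counted on GRCm39, and no other annotated gene overlapped the 3 gene bodies. The 250 bases before the RefSeq start of each member (GRCm38.p6) are shown because the AHR core was present in only some of them. They are chr9:57697363-57697612 for Cyp1a1, chr9:57683656-57683905 for Cyp1a2 and chr17:79715062-79715311 for Cyp1b1, each written 5′ to 3′ along the strand of the gene, with the core GCGTG, or CACGC where it stood on the other strand, in capitals.
Cyp1a1: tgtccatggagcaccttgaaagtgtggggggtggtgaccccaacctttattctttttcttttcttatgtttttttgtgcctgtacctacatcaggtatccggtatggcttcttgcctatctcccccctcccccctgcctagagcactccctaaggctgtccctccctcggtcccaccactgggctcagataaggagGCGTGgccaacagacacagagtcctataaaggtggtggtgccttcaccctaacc
Cyp1a2: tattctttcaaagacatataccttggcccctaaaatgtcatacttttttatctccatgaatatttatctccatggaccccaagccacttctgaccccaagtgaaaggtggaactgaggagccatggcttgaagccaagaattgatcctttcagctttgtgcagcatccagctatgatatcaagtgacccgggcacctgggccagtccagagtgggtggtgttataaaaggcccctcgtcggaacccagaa
Cyp1b1: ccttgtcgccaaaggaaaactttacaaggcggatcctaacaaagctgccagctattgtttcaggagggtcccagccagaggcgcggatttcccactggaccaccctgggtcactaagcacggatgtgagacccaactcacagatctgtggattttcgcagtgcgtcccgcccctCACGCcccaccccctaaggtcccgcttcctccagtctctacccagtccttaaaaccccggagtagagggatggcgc
The first base of the core stood 54 bases before the start of Cyp1a1 and 76 bases before that of Cyp1b1, where it was read as CACGC. The letters GCGTG and CACGC were not in the Cyp1a2 window. Of 32851 mouse promoter windows of the same length in the RefSeq set, 28.2% held the core at least once on either strand, so its presence in a window of this length is common. A match is a description of letters, and binding was not measured here.

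Between 13588848 and 30719161 read pairs per library were counted on genes, with a median of 18011825. Whether Pkm followed the genotype labels was not tested, and counts per gene do not separate its isoforms. At 8 h it was at 109.2 to 169 CPM with TCDD and 37.8 to 81.5 CPM with vehicle in libraries labelled DRE-null, and at 29.3 to 62.6 and 41.8 to 80.8 CPM in those labelled wild-type, so groups are named here by their labels alone. The only Pkm change called at any hour was lower with TCDD, at 96 h under the wild-type label (log2 fold change -0.73, SE 0.14, adjusted p = 0.00376 by edgeR's quasi-likelihood test). Neither difference at 8 h was called (adjusted p = 0.128 and 0.123 by edgeR's quasi-likelihood test). Of the hepatocyte markers, Alb was at 1967 CPM or more and Hnf4a at 244 CPM or more in every library. Cyp2e1 was not kept in this way and had no count in 4 libraries. Its mean with vehicle under the wild-type label was 4672 CPM at 2 h and 4.51 CPM at 72 h. The summed level of the hepatocyte markers fell over the culture. In vehicle-treated libraries labelled wild-type its median was 145100 CPM at 2 h and 8029 CPM at 120 h. Summed markers of other cell types stayed below those of hepatocytes. They were at 1.02 to 357 CPM for macrophages and 32.9 to 412 CPM for endothelial cells. For stellate cells and fibroblasts they were at 1.88 to 255 CPM, and for cholangiocytes at 6.93 to 373 CPM. These are bulk libraries, in which fewer cells of a type and less RNA per cell cannot be told apart.

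There were 5 libraries that stood apart. Calls of the members that changed without them are given both ways, whereas values of other genes and of cell type markers include them. The 3 labelled wild-type were recognized by Cyp1a1 itself, so values without them describe what those libraries contribute and are no independent evidence. In libraries labelled wild-type, vehicle replicate 1 at 48 h held 3285 CPM of Cyp1a1 where the others of its group held 1.34 to 2.37 CPM, and vehicle replicate 3 at 96 h held 1717 CPM against 17.9 to 114.1 CPM. Cyp1a2 was also high in these vehicle libraries (603 and 1252 CPM). Their Cyp1b1 (0.210 and 16.3 CPM) stayed far below the TCDD libraries of the same hours (215 to 269 and 598 to 906 CPM). Over 12243 genes, vehicle replicate 1 at 48 h correlated at r = 0.61 with its own group, where the others stood at 0.47 to 0.81. It was closest, at r = 0.83, to the TCDD libraries of its hour and label. Vehicle replicate 3 at 96 h was closest to its own group, at r = 0.925, where the others stood at 0.919 to 0.932. TCDD replicate 4 at 72 h held 29.2 CPM of Cyp1a1 where the others held 3386 to 6764 CPM, and its Cyp1a2 (14.6 CPM) and Cyp1b1 (0.229 CPM) lay within the range of the vehicle libraries of that hour. Over 12243 genes it correlated at r = 0.91 with those vehicle libraries and at r = 0.62 with its own group. The other libraries were recognized by their profile over 12243 genes. Vehicle replicate 4 at 4 h, labelled DRE-null, correlated at r = -0.68 with the mean of its own group and most closely, at r = 0.90, with the vehicle libraries of 96 h labelled wild-type. Vehicle replicate 4 at 96 h of the same label correlated at r = -0.73 with its own group and most closely, at r = 0.90, with the TCDD libraries of 4 h. These 2 were each closest to a group 6 harvests away from their own, whereas 26 libraries were closest to a group 1 harvest away, 1 to a group 2 harvests away and all others to a group of their own hour.

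Cyp1a1 was the first member with every TCDD library above every vehicle library, at 4 h under the wild-type label and at 2 h under the DRE-null label, and its first call, like that of Cyp1a2, was at 8 h. It was near silent at 2 h with vehicle, was at 1651 CPM or more in every TCDD library from 8 to 120 h under both labels, other than replicate 4 at 72 h labelled wild-type. At 2 h, the vehicle libraries labelled wild-type held 3.16, 0.823, 1.60 and 5.39 CPM and the TCDD libraries 22.2, 29.8, 6.24 and 1.15 CPM, in replicates 1 to 4. The ranges overlapped through TCDD replicate 4 (log2 fold change 2.42, SE 0.91, adjusted p = 0.9998 by edgeR's quasi-likelihood test). With the DRE-null label, the vehicle libraries of 2 h held 0.941, 3.26, 1.08 and 0.837 CPM and the TCDD libraries 21.2, 19.9, 17.03 and 10.48 CPM. Every TCDD library lay above every vehicle library, a difference that was not called (log2 fold change 3.53, SE 0.50, adjusted p = 0.28 by the same test). A gene was called here when its adjusted p was under 0.05 with a fold change of at least 1.5, the fold change criterion of the study.

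At 4 h, Cyp1a1 under the wild-type label stood at 126.5, 128.9, 325 and 10.2 CPM with TCDD and at 2.42, 0.726, 2.50 and 4.47 CPM with vehicle. All TCDD libraries were higher, but the change did not pass (log2 fold change 5.78, SE 0.96, adjusted p = 0.286 by edgeR's quasi-likelihood test). Without TCDD replicate 4 it was called, at 6.16. For the DRE-null label, the values were 349, 711, 792 and 249.5 CPM with TCDD and 1.23, 2.01, 4.18 and 64.5 CPM with vehicle. The last of these is the vehicle library that resembled later hours. With it the log2 fold change was 4.99 (SE 1.30) and was not called (adjusted p = 0.957 by edgeR's quasi-likelihood test), and without it 7.76 (SE 0.66, adjusted p = 0.00596 by the same test), when Cyp1a1 was the 1 gene called of 12247 tested (0.00817%).

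At 8 h, Cyp1a1 was called under both labels. In libraries labelled wild-type the TCDD libraries held 1651, 1775, 1695 and 4144 CPM and the vehicle libraries 0.977, 3.60, 3.31 and 4.06 CPM (log2 fold change 9.55, SE 0.50, adjusted p = 9.33e-07 by edgeR's quasi-likelihood test). Among libraries labelled DRE-null the TCDD libraries held 4195, 3313, 3984 and 3527 CPM and the vehicle libraries 1.76, 1.98, 3.45 and 3.49 CPM (log2 fold change 10.45, SE 0.32, adjusted p = 1.33e-08 by the same test). The lowest TCDD library thus lay far above the highest vehicle library under each label.

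Of 9 hours, Cyp1a1 was called at 4 under the wild-type label (8, 12, 24 and 120 h) and at 6 under the DRE-null label (8, 12, 24, 48, 72 and 120 h), and was higher with TCDD each time. Without the libraries that stood apart it was called at 7 and 8 hours, from 8 h and from 4 h to 120 h. Over all genes tested, the share called under the wild-type label was 0% at 2 h and 4 h, and at the 7 later harvests, in order, 37.4%, 0.0321%, 0.373%, 0.00763%, 0%, 15.1% and 1.46%. Under the DRE-null label it was likewise 0% in the first pair of harvests, and then 0.106%, 0.024%, 0.016%, 0.404%, 1.13%, 0.0793% and 0.633%. Apart from 8 h and 96 h under the wild-type label, a call was therefore rare. Where edgeR called no gene, 166 and 2126 genes had an unadjusted p under 0.05 at 2 and 4 h and 276 at 72 h under the wild-type label, and 1717 and 289 at 2 and 4 h under the DRE-null label. DESeq2 called 0, 38, 16, 565 and 2 genes in these comparisons. It called Cyp1a1 already at 4 h under the wild-type label and at 2 h under the DRE-null label.

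**Figure D1:**
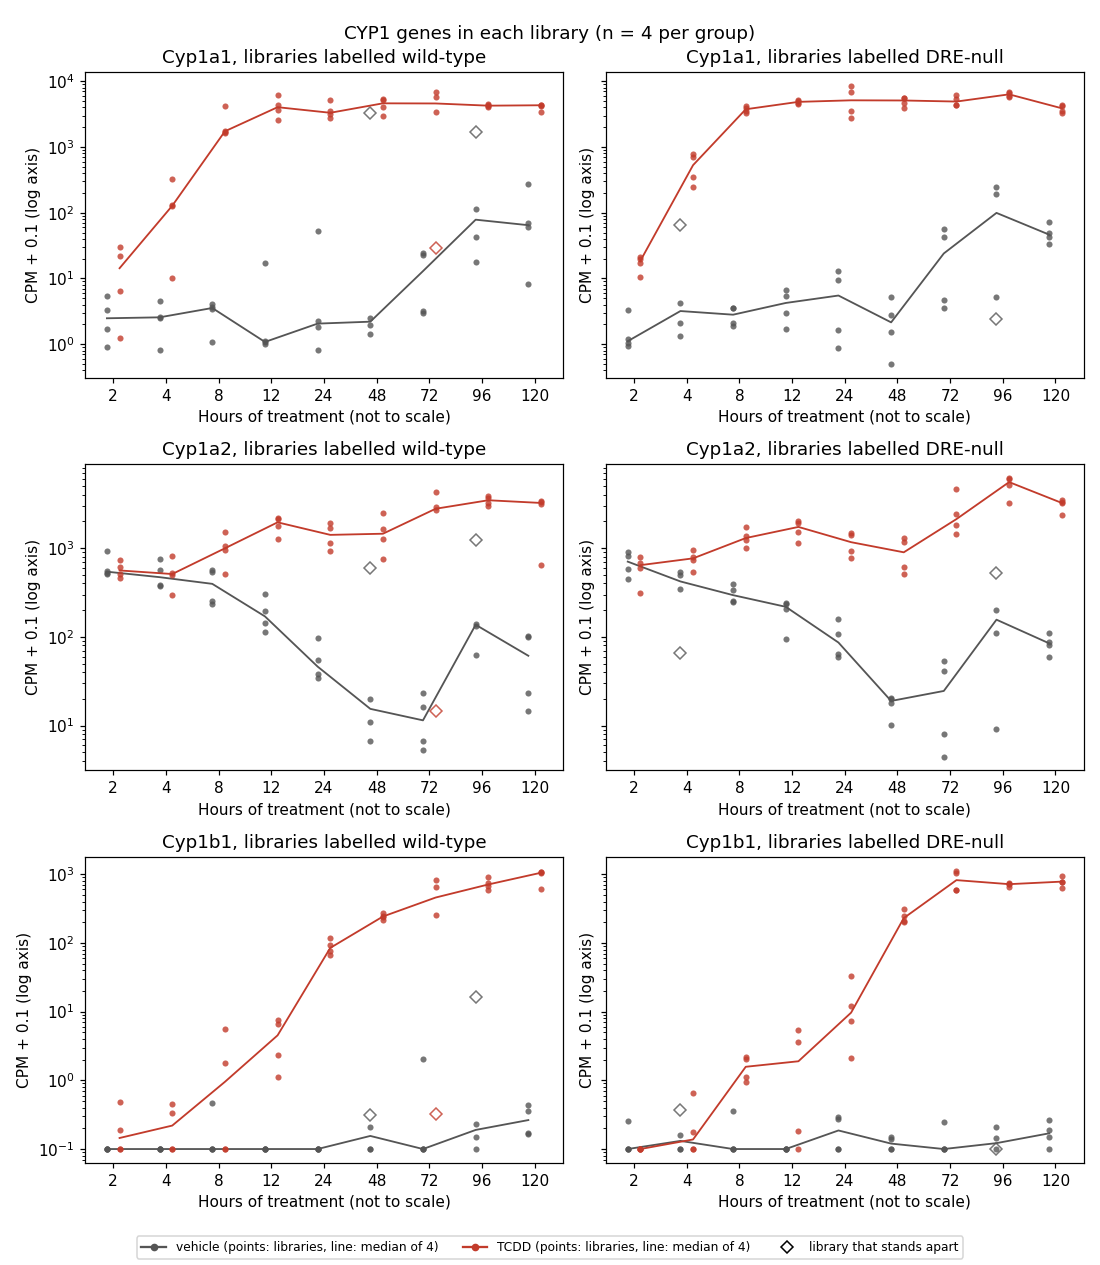
CYP1 expression in each library: rows are the 3 genes, columns the 2 labels, the x axis is hours of treatment (not to scale) and the y axis CPM + 0.1 on a log scale. Points are libraries, diamonds the 5 libraries that stood apart and lines the medians of 4. Cyp1a1 separates first. From 12 h on, the median of Cyp1a2 is lower than at 2 h with vehicle and higher with TCDD. Cyp1b1 stays below 10 CPM up to 12 h.

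From 12 h on, Cyp1a1 stayed on a plateau with TCDD. Its group means from 12 to 120 h were 3644 to 4372 CPM under the wild-type label. The mean at 72 h was 3999 ± 3005 CPM with all libraries (SD, n = 4) and 5322 ± 1743 CPM without TCDD replicate 4 (SD, n = 3). In libraries labelled DRE-null they were 3874 to 6299 CPM. The highest mean there was at 96 h (6299 ± 483 CPM, SD, n = 4), and all 4 libraries of 120 h (3302 to 4424 CPM) lay under those of 96 h (5769 to 6758 CPM). How many of all genes were separated between these hours was not computed.

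The late fold changes of Cyp1a1 depended on single vehicle libraries. At 48 h under the wild-type label, the log2 fold change was 2.46 (SE 2.02) with vehicle replicate 1 and 11.25 (SE 0.47, adjusted p = 2.43e-05 by edgeR's quasi-likelihood test) without it. At 96 h it was 3.25 (SE 1.48) with vehicle replicate 3 and 6.27 (SE 0.62, adjusted p = 0.000556 by the same test) without it. Leaving out TCDD replicate 4 moved the 72 h value less, from 8.26 (SE 1.55) to 8.67 (SE 0.95), but it was called only then (adjusted p = 0.0121 by the same test). For the DRE-null label, the 96 h value was 5.83 (SE 1.42) with vehicle replicate 4 and 5.36 (SE 0.95, adjusted p = 0.0158 by the same test) without it.

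Some calls of Cyp1a1 also rested on single libraries that did not stand apart. The call at 12 h under the wild-type label (log2 fold change 9.69) was lost in 5 of 8 fits that left out 1 library, those without vehicle replicate 1, 3 or 4 or TCDD replicate 1 or 4. That at 24 h (8.10) was lost in 7 of 8 fits, all but the one without vehicle replicate 4, whose 53.5 CPM set it apart from the 0.720 to 2.16 CPM of the other vehicle libraries and without which the value was 11.23. The call at 120 h (5.33) was lost in 6 of 8 fits, being kept without vehicle replicate 1 or 2. Among libraries labelled DRE-null, the call at 24 h (9.73) was lost in 6 of 8 fits, being kept without TCDD replicate 2 or 4. In all of these fits the log2 fold change remained at 4.94 or more, so it was the adjusted p and not the direction that changed. The call at 2 h under the DRE-null label was gained without vehicle replicate 2, at 4.15.

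Cyp1a1 was also higher late in the culture with vehicle alone. Under the wild-type label its 4 vehicle libraries held 0.823 to 5.39 CPM at 2 h and 8.00 to 269.5 CPM at 120 h, with no overlap. Under the DRE-null label they held 0.837 to 3.26 CPM at 2 h and 33.8 to 72.9 CPM at 120 h, again with no overlap. The share of all genes separated between these hours was not computed. A change over the culture was common, with 80.8% and 56.8% of all genes called at any hour with vehicle under the wild-type and DRE-null labels. The step from 24 to 120 h was 2.76 on the log2 scale (SE 1.73) under the wild-type label and 2.99 (SE 1.16) under the DRE-null label, and neither was called (adjusted p = 0.206 and 0.0592 by edgeR's quasi-likelihood test). Without the libraries that stood apart, the second was called at 3.05 (SE 0.91, adjusted p = 0.0117 by the same test). With all libraries, 23.4% of all genes were called in that step under the DRE-null label. Even at 120 h the vehicle level was a small part of the TCDD level, and the fold change of Cyp1a1 had shrunk from 10.45 at 8 h to 6.26 at 120 h on the log2 scale under the DRE-null label while the TCDD means of these hours were 3755 and 3874 CPM.

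Cyp1a2 started from a high basal level, and its vehicle medians, but not its TCDD medians, were below those of 2 h from 12 h on. At 2 h the vehicle medians were 543.1 and 705.5 CPM under the wild-type and DRE-null labels, and at 12 h 170.1 and 218.2 CPM. In vehicle-treated libraries labelled wild-type it stood at 559.5, 933, 527 and 507 CPM at 2 h and at 38, 34.2, 54.2 and 96.9 CPM at 24 h. In libraries labelled DRE-null it stood at 822, 454, 905 and 589 CPM at 2 h and at 159.7, 59.2, 64.1 and 108.3 CPM at 24 h. The fall from 8 to 24 h was -2.96 on the log2 scale (SE 1.01, adjusted p = 0.0237 by edgeR's quasi-likelihood test) under the wild-type label and -1.77 (SE 0.72, adjusted p = 0.131 by the same test) under the DRE-null label. The second was called without the libraries that stood apart, at -1.85 (SE 0.60, adjusted p = 0.0397 by the same test). With all libraries, 29.1% and 3.33% of all genes were called in this step under the wild-type and DRE-null labels.

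The lowest vehicle medians of Cyp1a2 were reached at 48 and 72 h. They were 15.3 and 11.4 CPM under the wild-type label and 18.8 and 24.5 CPM under the DRE-null label. Without vehicle replicate 1, which stood apart, the wild-type median at 48 h was 10.8 CPM. At 96 h the vehicle libraries labelled wild-type held 141.1, 61.8, 1252 and 132.8 CPM, of which the third is the library that stood apart, and those labelled DRE-null held 9.10 to 201 CPM in replicates 1 to 3 and 523 CPM in replicate 4, which is the library that resembled early hours. The remaining 3 vehicle libraries of 96 h labelled wild-type all lay above those of 72 h (5.24 to 23.2 CPM), whereas under the DRE-null label they overlapped those of 72 h (4.38 to 54.02 CPM). How many of all genes were separated between these hours was not computed, so this is a description only.

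TCDD had no called effect on Cyp1a2 at 2 or 4 h. At 2 h the TCDD libraries labelled wild-type held 512, 732.5, 459.8 and 610.1 CPM, overlapping the vehicle libraries (log2 fold change -0.13, SE 0.25). The corresponding value under the DRE-null label was -0.15 (SE 0.29). An interval of 2 SE either side of these values stays within a 2-fold change in either direction. At 4 h the log2 fold change was -0.01 (SE 0.31) under the wild-type label, and 1.06 (SE 0.55) under the DRE-null label, or 0.70 (SE 0.20) without vehicle replicate 4.

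Cyp1a2 rose from 8 h. In libraries labelled wild-type it stood at 949, 1046, 516 and 1508 CPM with TCDD and at 537, 560.4, 234 and 255 CPM with vehicle, an overlap through TCDD replicate 3 (log2 fold change 1.30, SE 0.34, adjusted p = 0.00868 by edgeR's quasi-likelihood test). For the DRE-null label the values were 1753, 1012, 1359 and 1243 CPM against 338, 249, 252 and 392 CPM, with no overlap (2.11, SE 0.21, adjusted p = 0.00274 by the same test). The increase over the 2 h level within the TCDD arm was smaller, at 0.83 (SE 0.66, not called) and 1.18 (SE 0.32, adjusted p = 0.00603 by the same test).

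Of 9 hours, Cyp1a2 was called at 4 (8, 12, 24 and 120 h) under the wild-type label and at 6 (8, 12, 24, 48, 72 and 120 h) under the DRE-null label, the same hours as Cyp1a1, with the same shares of all genes called. Without the libraries that stood apart it was called at 7 hours under each label, from 8 to 120 h. The log2 fold change without them was 6.99 (SE 0.64) at 48 h, 8.01 (SE 0.62) at 72 h and 5.00 (SE 0.29) at 96 h under the wild-type label, against 3.32 (SE 1.35), 7.59 (SE 1.40) and 3.19 (SE 1.02) with them. Among libraries labelled DRE-null it was 5.53 (SE 0.83) without and 4.49 (SE 1.03) with vehicle replicate 4 at 96 h. Among all genes tested, the share called without these libraries was, from 48 to 96 h, 0.0519%, 0.0808% and 14.7% under the wild-type label, and 2.25% at 96 h under the DRE-null label.

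The calls of Cyp1a2 at 12 and 24 h were less stable under the DRE-null label than its values. The log2 fold change of 3.07 at 12 h lost its call in 6 of 8 fits without 1 library, being kept without vehicle replicate 2 or TCDD replicate 2, and stayed between 2.78 and 3.19. That of 3.47 at 24 h lost it in 7 of 8 fits, being kept without TCDD replicate 2, and stayed between 3.31 and 3.76. Under the wild-type label the call at 12 h (3.28) was lost in 4 of 8 fits, those without vehicle replicate 1 or 4 or TCDD replicate 1 or 4, and the call at 120 h (5.45) in 5 of 8, those without vehicle replicate 1 or 4 or TCDD replicate 1, 2 or 4.

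With TCDD, the mean of Cyp1a2 was highest at 96 h under both labels. Under the DRE-null label its group mean was 1665 ± 412 CPM at 12 h, 905 ± 400 CPM at 48 h and 5128 ± 1339 CPM at 96 h (SD, n = 4 each). The libraries of 12 and 48 h overlapped (1146 to 2042 and 509.6 to 1315 CPM), and those of 96 h (3241 to 6140 CPM) lay above both. For all genes, the share separated in this way was not computed. The change from 24 to 120 h, 1.36 on the log2 scale (SE 0.33, adjusted p = 0.000747 by edgeR's quasi-likelihood test), was called. In libraries labelled wild-type the means were 1840 ± 426 CPM at 12 h, 1539 ± 740 CPM at 48 h and 3443 ± 405 CPM at 96 h (SD, n = 4 each), and the change from 24 to 120 h was 0.86 (SE 0.66) and was not called. TCDD replicate 3 at 120 h of that label held 640.5 CPM where its group held 3171 to 3394 CPM.

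**Figure D2:**
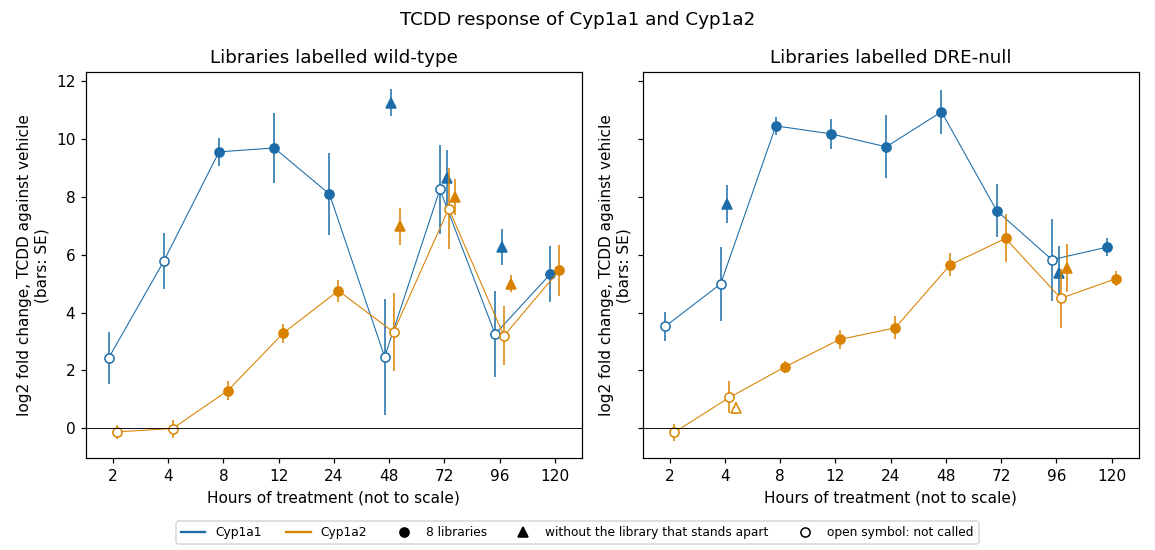
log2 fold change of Cyp1a1 (blue) and Cyp1a2 (orange) with TCDD against vehicle by hour (x axis not to scale), with standard errors as bars. Circles use the 8 libraries of an hour, triangles leave out the library that stood apart and open symbols were not called; the wild-type values at 48 and 96 h move up when 1 vehicle library is left out.

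Cyp1b1 was absent or near absent from the vehicle libraries and was the last member to be called with TCDD. It had 0 counts in all 4 vehicle libraries labelled wild-type at 2, 4, 12 and 24 h, where 3 counts over the group would be 0.0659, 0.0492, 0.0363 and 0.0299 CPM. Outside the libraries that stood apart, its highest vehicle value was 1.98 CPM, in replicate 3 at 72 h under the wild-type label. Vehicle replicate 3 at 96 h of that label, one of those that stood apart, held 16.3 CPM. Over all libraries of the series, 60 held no count of Cyp1b1. Such limits cover counting error only.

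No TCDD library exceeded 0.545 CPM of Cyp1b1 at 2 or 4 h. Under the wild-type label they held 0, 0, 1.70 and 5.49 CPM at 8 h and 1.01, 2.25, 7.40 and 6.59 CPM at 12 h. In libraries labelled DRE-null they held 1.00, 2.11, 0.856 and 1.95 CPM at 8 h and 0, 5.35, 0.0809 and 3.51 CPM at 12 h. The wild-type values of 12 h and the DRE-null values of 8 h lay above all vehicle libraries but were not called (adjusted p = 0.129 and 0.337 by edgeR's quasi-likelihood test). At 8 h under the wild-type label and 12 h under the DRE-null label, as at 2 and 4 h under both, the counts were too low to be tested.

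At 24 h, Cyp1b1 under the wild-type label reached 92.3, 76.98, 118.8 and 67.02 CPM with TCDD against 0 in every vehicle library. This was at least 2961-fold higher, as pooled CPM against 3 counts over the vehicle group, and was called (adjusted p = 2.52e-05 by edgeR's quasi-likelihood test). For the DRE-null label the TCDD libraries of 24 h held 11.9, 1.98, 32.5 and 7.24 CPM and the vehicle libraries 0, 0.173, 0.195 and 0 CPM. Every TCDD library was above every vehicle library, and the pooled ratio was 128.7 (95% counting interval 65.1 to 299), but the change was not called (adjusted p = 0.232 by the same test). All 4 TCDD libraries labelled wild-type lay above all 4 labelled DRE-null at this hour. The share of all genes separated between the labels in this way was not computed.

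Of 6 hours tested, Cyp1b1 was called at 4 under the wild-type label (24, 48, 96 and 120 h) and at 4 under the DRE-null label (48, 72, 96 and 120 h). At 48 h the TCDD libraries held 215, 237, 248 and 269 CPM under the wild-type label and 250.5, 209.5, 307 and 203 CPM under the DRE-null label, so that the ranges of the labels now overlapped. At 72 h they held 836, 661, 254.5 and 0.229 CPM and 591, 581, 1122 and 1051 CPM. The value of 0.229 CPM is the TCDD library that stood apart, and the wild-type change at 72 h was not called with it (adjusted p = 0.9999 by edgeR's quasi-likelihood test) or without it (adjusted p = 0.0648 by the same test). At 120 h the values were 1036, 1067, 619 and 1080 CPM under the wild-type label and 939, 778, 784 and 624 CPM under the DRE-null label.

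The pooled ratios of Cyp1b1 at 120 h were 5595 (95% counting interval 3582 to 9293) under the wild-type label and 10540 (5116 to 26220) under the DRE-null label. They rest on 19 and 7 counts in the vehicle groups. At 96 h under the wild-type label, vehicle replicate 3 brought the ratio down to 163 (148 to 181), with 391 of the 395 counts of its group. Fitted log2 fold changes of Cyp1b1 depend on the prior count where the vehicle libraries are at or near 0, so they are not compared here.

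Whole steps of the time course were tested in the 36 libraries of a label and treatment. Cyp1a1 with TCDD rose from 2 to 8 h by 7.39 (SE 1.02) under the wild-type label and by 7.81 (SE 0.40) under the DRE-null label on the log2 scale, and both were called (adjusted p = 2.16e-06 and 3.05e-16 by edgeR's quasi-likelihood test). Its changes from 8 to 24 h (0.55 and 0.43) and from 24 to 120 h (0.14 and -0.56) were not called. Cyp1b1 with TCDD rose from 8 to 24 h by 5.45 (SE 1.06) and 3.02 (SE 0.70), and from 24 to 120 h by 3.38 (SE 0.93) and 5.82 (SE 0.73), all called (largest adjusted p = 0.00483 by the same test). From 2 to 8 h it was called under the DRE-null label (adjusted p = 0.0034) but not under the wild-type label (adjusted p = 0.0509 by the same test), where it was called without the library that stood apart (adjusted p = 0.00659). Each tested member also passed the test for a change at any hour in all 4 fits.

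A call was common in these fits, so it says little about the members in particular. The shares below are those of the fits with all libraries, and the shares without the libraries that stood apart are not given. Of all genes tested with TCDD under the wild-type label, 30.5% were called from 2 to 8 h, 21.5% from 8 to 24 h, 32.3% from 24 to 120 h and 73.2% at any hour. The shares with TCDD under the DRE-null label were 27.1%, 19.1%, 53.5% and 79.6% in that order. With vehicle they were 31.9%, 29.1%, 35.6% and 80.8% under the wild-type label and 11%, 3.33%, 23.4% and 56.8% under the DRE-null label.

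Each gene was also scaled to the hour of its highest mean, which puts the 3 time courses on 1 scale. At 2 and 4 h with TCDD Cyp1a2 stood highest (16.8% and 11.7% at 2 h under the wild-type and DRE-null labels, against 0.279% and 0.272% for Cyp1a1). With TCDD under the wild-type label at 8 h, leaving out the libraries that stood apart, Cyp1a1 had reached 43.5% of that level, Cyp1a2 29.2% and Cyp1b1 0.189%. Among libraries labelled DRE-null at 8 h these values were 59.6%, 26.2% and 0.177%. At 48 h they were 82.2%, 44.7% and 25.5% under the wild-type label and 78.4%, 17.7% and 29% under the DRE-null label, so that Cyp1b1 stood below Cyp1a2 under the first label and above it under the second. Cyp1a1 had thus come most of the way by 12 h (79.2% and 77.1%), while Cyp1b1 made most of its rise after 48 h. Without the libraries that stood apart, the highest means of Cyp1a1 were at 72 h and 96 h, in the order wild-type and DRE-null. Those of Cyp1a2 were at 96 h under both labels, and those of Cyp1b1 at 120 h and 72 h. With all libraries, Cyp1a1 under the wild-type label was highest at 48 h (4372 CPM) and had a mean of 3999 CPM at 72 h. Its peak hour and percentages under that label thus rest on leaving out a library recognized by Cyp1a1 itself.

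**Figure D3:**
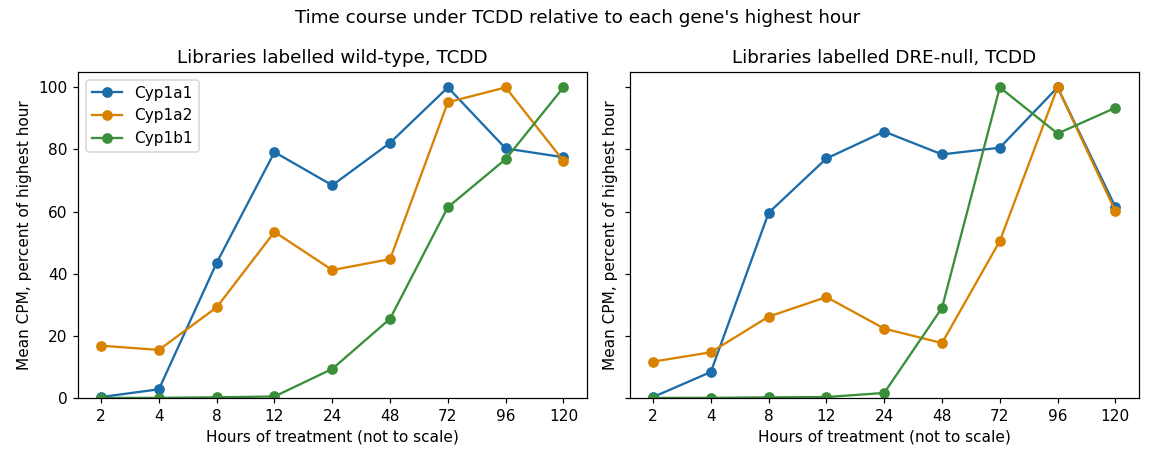
Mean CPM with TCDD as a percentage of the highest hour of each gene, by hour (x axis not to scale), for the wild-type and DRE-null labels, without the 5 libraries that stood apart (n = 4, and 3 at 72 h under the wild-type label). At 8 h Cyp1a1 stands at 43.5% and 59.6% while Cyp1b1 is still below 1%.

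The hours could not all be ranked within a gene. When the 9 hours were put in order of their medians, without the libraries that stood apart, the ranges of Cyp1a1 with TCDD overlapped for 7 of 8 neighbouring hours under the wild-type label, the exception being 4 and 8 h. Under the DRE-null label they overlapped for 5 of 8, the exceptions being 2 and 4 h, 4 and 8 h, and 120 and 12 h. For Cyp1a2 with TCDD, 7 of 8 and 8 of 8 neighbours overlapped, and for Cyp1b1 6 of 8 and 5 of 8. With vehicle, all 8 neighbours overlapped for Cyp1a1 and for Cyp1b1 under both labels. The vehicle order of Cyp1a2 was clearer between 72 and 24 h under the wild-type label and between 72 and 120 h and between 12 and 8 h under the DRE-null label, which did not overlap. Such overlaps were not counted over all genes.

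Levels were compared between genes per kilobase of mRNA, taken as 2621 bases for Cyp1a1, 1940 for Cyp1a2 and 5128 for Cyp1b1. With vehicle at 2 h, under the wild-type label, Cyp1a1 stood at a mean of 1.05 CPM per kb and Cyp1a2 at 325.5 CPM per kb. With TCDD at 24 h of that label the levels were 1390 and 731 CPM per kb, and at 96 h 1631 and 1775 CPM per kb. Cyp1b1 stayed lowest, at 17.3 CPM per kb at 24 h and 142.6 CPM per kb at 96 h. At 96 h under the DRE-null label the levels were 2403 CPM per kb for Cyp1a1, 2643 CPM per kb for Cyp1a2 and 138.8 CPM per kb for Cyp1b1.

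The ratio of Cyp1a1 to Cyp1a2 counts within a library, with 0.5 added to each count, does not depend on how libraries are scaled. With vehicle its mean log2 value was -8.10 at 2 h, -6.46 at 12 h and 0.34 at 120 h under the wild-type label, and -8.97, -5.65 and -0.78 under the DRE-null label. It rose through the culture even without TCDD. With TCDD it was already above 0 at 8 h, at 1.18 and 1.51, and ended at 0.91 and 0.34 at 120 h.

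The change of this ratio with TCDD was largest at 8 h, where it was 8.29 on the log2 scale under the wild-type label and 8.38 under the DRE-null label, and it narrowed to 0.57 and 1.12 at 120 h. In an exact two-sided permutation test of 4 against 4 libraries, whose smallest possible p is 0.0286, that value was reached at 4, 8, 12 and 24 h under the wild-type label and at 2, 8, 12, 24, 48 and 120 h under the DRE-null label. After Benjamini-Hochberg adjustment over 18 comparisons these became 0.0514, so none of the 18 passed. Without the libraries that stood apart, the change at 4 h under the DRE-null label was 7.02 in place of 5.11, and at 48 h under the wild-type label 4.23 in place of 2.96. At 96 h it was 1.56 in place of 1.14 under the wild-type label and 0.26 in place of 2.22 under the DRE-null label, and at 72 h under the wild-type label 1.02 in place of 1.10.

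**Figure D4:**
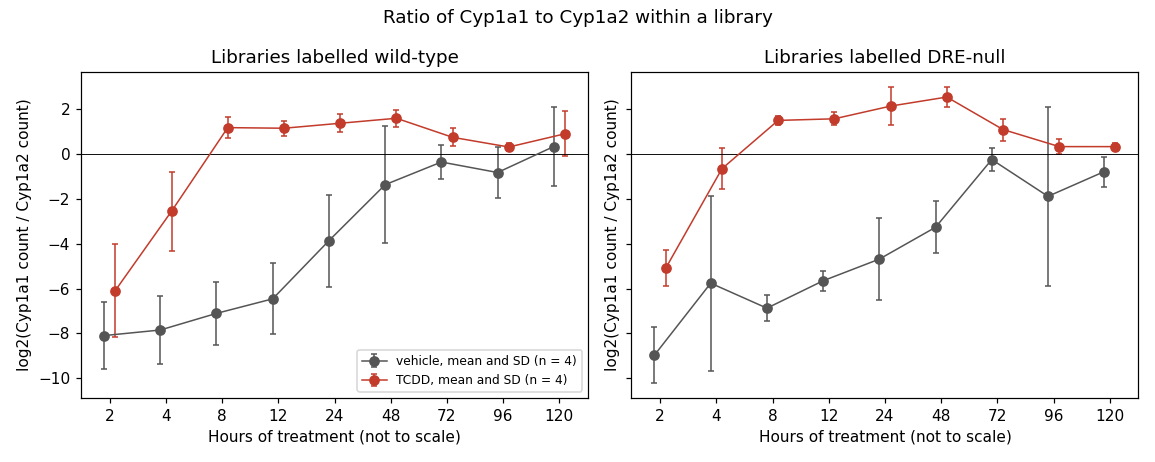
Mean log2 ratio of Cyp1a1 to Cyp1a2 counts within a library (points) with SD (bars, n = 4) by hour of treatment (not to scale), with vehicle in gray and TCDD in red, for each label. The vehicle ratio climbs from -8.10 at 2 h to 0.34 at 120 h under the wild-type label, while the TCDD ratio is above 0 from 8 h on.

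An interaction term fitted to the 16 libraries of each harvest asked whether the response to TCDD differed between the genotype labels. None of 25 tests of the members was called by edgeR's quasi-likelihood test, 4 had an unadjusted p under 0.05, and DESeq2 called 0. The 4 were Cyp1a2 at 24 h (-1.20 on the log2 scale, DRE-null minus wild-type, SE 0.53, adjusted p = 0.795 by edgeR's quasi-likelihood test), Cyp1b1 at 24 h (adjusted p = 0.795), Cyp1a1 at 48 h (8.50, SE 2.52, adjusted p = 0.9999) and Cyp1b1 at 96 h (adjusted p = 0.275). The values at 48 and 96 h include vehicle libraries that stood apart, and without those libraries the value of Cyp1a1 at 48 h was -0.30 (SE 0.70) and still no member was called. Over all genes, the share called was 0% at 2, 4, 8, 12, 24, 96 and 120 h, 0.00715% at 48 h and 0.00695% at 72 h. At the hours with no call, at most 2114 genes had an unadjusted p under 0.05 (at 8 h), and DESeq2 called at most 0.772% of genes (at 96 h).

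A response that is not called as different has not been shown to be alike. At 8 h the interaction was 0.78 for Cyp1a1 (SE 0.49) and 0.68 for Cyp1a2 (SE 0.42), and at 120 h 0.93 (SE 0.85) and -0.28 (SE 0.77). With TCDD at 96 h, all 4 Cyp1a1 values were higher under the DRE-null label (5769 to 6758 CPM) than under the wild-type label (4007 to 4578 CPM), whereas those of 4 h overlapped. How many of all genes separated the labels at an hour was not computed, so this separation is a description only.

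Averaged over the 9 hours, the level of no member was called as different between the labels (DRE-null minus wild-type). The vehicle difference of Cyp1a1 was -1.16 on the log2 scale (SE 0.49, adjusted p = 0.216 by edgeR's quasi-likelihood test), and -0.11 (SE 0.36) without the libraries that stood apart. The vehicle difference of Cyp1a2 was -0.27 (SE 0.28) and became 0.27 (SE 0.20) without them, a change of sign. With TCDD the difference was 0.51 for Cyp1a1 (SE 0.20, adjusted p = 0.0514 by the same test), 0.06 for Cyp1a2 (SE 0.18) and -0.84 for Cyp1b1 (SE 0.58). The Cyp1b1 value gives equal weight to early hours with counts at or near 0, so it is not read as a difference in level. Without the libraries that stood apart, Cyp1a1 with TCDD was at 0.46 (SE 0.16, adjusted p = 0.0247 by the same test), under the fold change of 1.5 needed for a call. Of these 5 tests, 2 had an unadjusted p under 0.05, and DESeq2 called 0. Among all genes, 1.2% were called with vehicle and 5.02% with TCDD.

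Every TCDD library lay above every vehicle library at 7 of 9 hours for Cyp1a1, 5 for Cyp1a2 and 5 for Cyp1b1 under the wild-type label, and at 9, 7 and 6 hours under the DRE-null label. Over all genes tested, the share of gene and hour combinations in which all TCDD libraries lay higher was 5.59% under the wild-type label and 2.45% under the DRE-null label. Without the libraries that stood apart, Cyp1a1 at 48 h and both Cyp1a2 and Cyp1b1 at 72 h were also separated under the wild-type label.

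The other genes of the pathway were taken from lists written with earlier results of these data known. Among 7 genes of AHR signalling, the AHR repressor Ahrr and the AHR target Tiparp, an ADP-ribosyltransferase, were the ones called repeatedly. In libraries labelled wild-type 8 of 58 gene and hour tests were called higher, and under the DRE-null label 6 of 60. Of the 8, 4 fell at 8 and 96 h, when 37.4% and 15.1% of all genes were called. Ahrr was called at 24, 96 and 120 h and at 48, 72, 96 and 120 h, and had means of 19.4 and 17.8 CPM with TCDD at 120 h. Tiparp was called at 8, 24, 96 and 120 h under the wild-type label, with 81.8 CPM against 10.1 CPM at 8 h (log2 fold change 2.99, SE 0.28), and at 72 and 120 h under the DRE-null label. At 96 h under the latter label it was not called with vehicle replicate 4, which stood apart, included. That library held 62.4 CPM of Tiparp where the others of its group held 3.98 to 5.71 CPM. The chaperone Ptges3 (1.21) was called higher at 8 h under the wild-type label, where 37.4% of all genes were called in either direction. Ahr itself, Arnt and Hsp90ab1 were not called at any hour under either label.

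Of 6 further genes of the AHR battery, Nqo1, Ugt1a6a and Nfe2l2 were called, all of them higher. There were 10 calls among 38 tests under the wild-type label and 5 among 36 under the DRE-null label. Of the 10, 6 fell at 8 and 96 h, when 37.4% and 15.1% of all genes were called, whereas at most 1.13% of all genes were called at any hour under the DRE-null label. Nqo1, a quinone reductase, was called at 4 hours under each label, with 106 CPM against 17.3 CPM at 48 h under the DRE-null label (log2 fold change 2.53, SE 0.27). Ugt1a6a, a glucuronosyltransferase that shares exons with its neighbours and whose counts are therefore uncertain, was called at 8, 24, 96 and 120 h under the wild-type label and at 72 h under the DRE-null label. Aldh3a1 did not reach 1 CPM in any library. For the 3 genes that pass electrons to P450 enzymes, Por was called at 120 h (1.52, SE 0.13) and Cyb5r3 at 8 h (-0.67) under the wild-type label, and no call was made in 27 tests under the DRE-null label.

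The genes whose group means most resembled those of the members were ranked by Pearson's r of log2(CPM + 1) over the 36 groups, among 11505 genes. The groups share treatment and hour, so r is a description. The closest to Cyp1a1 were Ugt1a6a (r = 0.87), Neurl3 (0.85), Selenbp1 (0.83), Gsdme (0.83) and Dclk3 (0.82). The closest to Cyp1a2 were Lrp4 (0.89), Slc46a3 (0.88), Reln (0.88), Xdh (0.82) and Tiparp (0.81). Those closest to Cyp1b1 were Ahrr (0.98), Entpd2 (0.92), Ereg (0.92), Tnfaip2 (0.90) and Neurl3 (0.89). Among the members themselves r was 0.68 for Cyp1a1 and Cyp1a2, 0.75 for Cyp1a1 and Cyp1b1 and 0.69 for Cyp1a2 and Cyp1b1, lower than with the 5 genes named for each.

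Markers of other cell types were set beside the late rise of Cyp1b1. Of 20 non-hepatocyte markers, none was called higher with TCDD at any hour. Those called lower were Clec4f and Cd5l (macrophage) at 8 h and Cd5l, Pecam1, Cdh5 (endothelial), Krt19 and Krt7 (cholangiocyte) at 96 h under the wild-type label, and Krt19 at 72 h under the DRE-null label. Of all genes tested, 37.4% and 15.1% were called at 8 and 96 h under the wild-type label, so those calls say little about these markers in particular. The share at 72 h under the DRE-null label was 1.13%. The stellate cell and fibroblast markers were called at no hour, in 34 tests under each label, and Col1a1 had no count in 30 libraries. Their summed level under the wild-type label had a median of 5.48 CPM with TCDD and 6.11 CPM with vehicle at 24 h, and of 59.9 and 62.97 CPM at 120 h. In libraries labelled DRE-null these medians were 5.29 and 5.15 CPM at 24 h and 58.9 and 55.5 CPM at 120 h. Between these hours the medians with TCDD and vehicle were 149.1 and 88.4 CPM at 96 h under the wild-type label, and 58.3 and 32.8 CPM at 72 h and 50.95 and 37.5 CPM at 96 h under the DRE-null label. The part of these cells in the levels of Cyp1b1 was not tested.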

How the data were processed

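RNA of primary hepatocytes was sequenced in 144 libraries, 4 for each label, treatment and hour. The authors trimmed paired-end reads with Trimmomatic 0.39 after FastQC 0.11.3, aligned them to GRCm39 with STAR 2.7 and deposited STAR's gene counts, of which the unstranded column was used. These deposited counts are raw and not normalized. Rows that name no gene (16.77% to 48.01% of counts, median 24.16%) were left out of library sizes. Of 55359 genes, 52083 were paired with a symbol, and coordinates, mRNA lengths and promoters came from GRCm38 tables. The labels and the protocol name different culture vessels.

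From the counts, edgeR 4.0.16 in R 4.3.3 (filterByExpr, TMM, robust quasi-likelihood) was fitted to all genes with Benjamini-Hochberg adjustment, in 18 comparisons of 8 libraries, 9 interactions of 16 libraries, 4 time courses of 36 and 2 label comparisons of 72. Genes were called at an adjusted p under 0.05 if they changed by 1.5-fold or more. CPM used TMM over all 144 libraries. The log2 ratio of Cyp1a1 to Cyp1a2 used an offset of 0.5 counts and an exact permutation test. Counting intervals and limits of 3 counts cover counting error only. The fits were tested on simulated data with 200 changed genes. Other programs were DESeq2 1.42.0, the data.table package (version 1.17.8), Python 3.11.15, pandas 2.3.3 and matplotlib 3.10.9.

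The named genes were the 3 members, 3 pathway lists, markers of 5 cell types, Pkm, and for each member the 5 genes with the highest Pearson's r over group means, among named genes with a mean of at least 1 CPM. The hepatocyte marker Tf matched no symbol. The result of 1 gene of the AHR signalling list is not reported here. Members and lists were chosen with earlier results of these data known. The alternatives were DESeq2, RLE scaling, no filter on low counts, the adjusted p alone, larger fits, an offset of 1 count and leaving out each library. Leaving out the 5 libraries that stood apart was added after seeing the data. The labels carry no replicate number, so libraries were numbered in accession order within a group and never paired.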

Additional observations from a re-analysis of the deposited data

Results flagged for a closer look

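Of 88 groups of 4 libraries in which a member had at least 10 counts in some library, 15 held a single library far from the other 3 by the 95% critical value of Dixon's ratio, where chance gives about 1 in 20 groups. For Cyp1a1 under the wild-type label the single values were 17.3 CPM with vehicle at 12 h (nearest other library 0.999 CPM), 53.5 CPM at 24 h (2.16 CPM), 3285 CPM at 48 h (2.37 CPM) and 1717 CPM at 96 h (114.1 CPM), and with TCDD 4144 CPM at 8 h (1775 CPM) and 3451 CPM at 120 h (4251 CPM). Under the DRE-null label they were 3.26 CPM with vehicle at 2 h (1.08 CPM) and 64.5 CPM at 4 h (4.18 CPM).

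For Cyp1a2, all under the wild-type label, the single values were 933 CPM with vehicle at 2 h (nearest other library 559.5 CPM), 603 CPM at 48 h (19.8 CPM) and 1252 CPM at 96 h (141.1 CPM), and 640.5 CPM with TCDD at 120 h (3171 CPM). For Cyp1b1 they were 1.98 CPM with vehicle at 72 h (0 CPM), 16.3 CPM at 96 h (0.130 CPM) and 619 CPM with TCDD at 120 h (1036 CPM). Replicate 1 of the 48 h vehicle group was apart for both Cyp1a1 and Cyp1a2, replicate 3 of the 96 h vehicle group and replicate 3 of the 120 h TCDD group for all 3 members. Why these libraries differ was not tested.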

How the results depend on the processing

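No paired analysis was possible because the labels carry no replicate number, and culture, animal and batch could not be entered as terms. With 4 libraries a group, calls of large changes depended on single libraries, and Cyp1b1 could not be tested where its counts were near 0. Beyond the values given here, the direction of the log2 fold changes was kept under every alternative run.

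Without a filter on low counts, the hours called under the wild-type label were 1 for Cyp1a1 and 2 for Cyp1a2 (4 each with it), and no step of Cyp1a2 with vehicle was called (0, against 1). Without the 5 libraries that stood apart the hours were 7 and 7, and the steps with vehicle 1 for Cyp1a1 (0 with them) and 2 for Cyp1a2. In one fit of all libraries, the interaction was called at 1 hour for Cyp1a1 (48 h) and 1 for Cyp1b1 (96 h). These hours hold wild-type vehicle replicates 1 and 3, which stood apart. Neither interaction was called in the separate fits, with or without those libraries, and that of Cyp1a1 without them was -0.30 (SE 0.70). The share of all genes called in the one fit is not given. Its steps numbered 1 for Cyp1a1 with vehicle and 0 for Cyp1a2 with TCDD (2 in separate fits). DESeq2 called 1 step of Cyp1a1 with vehicle. The label difference of Cyp1a2 with vehicle, -0.27, became 0.27 without the libraries that stood apart.

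Leaving out 1 library at a time, the steps with vehicle ranged from 0 to 1 for Cyp1a1 and 0 to 1 for Cyp1a2, the label difference of Cyp1a2 with vehicle from -0.39 to 0.15 (12 of 72 libraries drawn, the last without vehicle replicate 1 at 48 h labelled wild-type) and the median change of the ratio under the DRE-null label from 4.12 to 5.81 (5.11 with all). The log2 fold change of Cyp1a2 ranged from -0.29 to 0.13 at 2 h and from -0.27 to 0.20 at 4 h under the wild-type label and from -0.37 to 0.0015 at 2 h under the DRE-null label. At 4 h under the wild-type label, where it was -0.01, it was 0.0229 with DESeq2 and with RLE scaling and 0.0346 without the filter. Of 384 fold changes refitted without 1 library, 320 kept direction and call, 46 lost the call, 11 gained it and 7 changed sign. Of 48 under each other setting, the call was lost in 3 with DESeq2, 8 without the filter, 4 in the larger fit and 1 with RLE scaling, and gained in 10, 4, 7 and 0. The causes were not tested.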
